A study of Mus musculus with 6 samples.

Results

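The cholesterol genes examined here were 32 genes chosen by name: 18 enzymes that build cholesterol, 5 proteins that regulate that synthesis, and 9 genes of cholesterol uptake, transport inside the cell, storage and efflux. Of these, 30 had a probe set with a single gene symbol on the array, namely 17 enzymes, all 5 regulators and 8 transport genes, out of 18193 genes measured in all. Acat2 and Soat1 were not analysed here. Where a gene had several probe sets, the one with the highest mean log2 signal over the 6 arrays stood for it, and signals of different genes are not set against each other, because each probe set has its own brightness.

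RNA came from uterine epithelium of pregnant mice, freed from the uterus with pancreatin and dispase, and was hybridised to Affymetrix 3′ expression arrays, 1 array per sample and 2 samples per group. The first group was Sox17 heterozygous on day 4 of pregnancy, in which 1 copy of Sox17 is a GFP allele (Sox17GFP/+) and the other remains normal (arrays 253 and 281). The others were wild type (WT) on day 4 (arrays 277 and 284) and WT on day 1, the day of the vaginal plug (arrays 302 and 303). The strain and age of the mice are not given in the sources used here, and no label says that the numbered samples are separate animals, so p-values measure only the spread between these samples, which may be technical. SOX17 is a transcription factor of this epithelium, and the arrays address how its dosage and the day of pregnancy bear on epithelial gene expression.

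Cholesterol is built from acetyl-CoA through mevalonate, isoprenoid units, squalene and lanosterol, and the last steps remove methyl groups from lanosterol and move its double bonds. The pathway is governed by sterol feedback. When membranes of the endoplasmic reticulum hold little sterol, SCAP carries the SREBP precursors to the Golgi, where they are cut to release transcription factors that switch on the synthesis genes, and when sterol is plentiful the INSIG proteins hold SCAP back. Incoming cholesterol leaves the lysosome through NPC2 and NPC1, and surplus cholesterol is exported by ABCA1 and ABCG1, which are induced by the sterol-sensing LXR receptors. In the early pregnant mouse uterus the epithelium passes from estrogen to progesterone dominance within a few days, ahead of embryo attachment.

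All arrays had a trimmed mean signal of 500. WT day 4 array 277 stood apart in its dim range, where its median was 138 while the medians of the other 5 lay within 66.2 to 78.0, and 27.0% of probe sets read under 50 on it, compared with 41.6% to 44.6% elsewhere. A gene typically differed by 0.59 on the log2 scale between the WT day 4 arrays, by 0.28 between the heterozygous arrays and by 0.32 between the day 1 arrays (median absolute values). Over all genes the median log2 difference was -0.20 for heterozygous minus WT on day 4 and 0.30 for WT day 4 minus WT day 1, and list medians below are to be read against these values. The targeted gene, Sox17, read 30189 and 28810 on the heterozygous arrays, against 34794 and 35060 on the WT day 4 arrays, without overlap but with an adjusted p of 0.586 in limma. This probe set is of a design that may also read related transcripts. A second, dimmer Sox17 probe set read 13304 and 13061 on the heterozygous arrays, against 22781 and 18473 on the WT day 4 arrays. It gave -0.64 ± 0.23 on the log2 scale in a fit over every probe set (limma adjusted p = 0.407). Summed over 8 epithelial markers such as Epcam and Krt8, signals lay within 139445 to 140785 in heterozygous samples, 131338 to 138838 in WT on day 4 and 146046 to 151873 in WT on day 1. Single markers of this list moved in both directions. From WT day 1 to WT day 4, 5 of 8 were lower and 1 higher without overlap, against 21.3% and 35.4% of all genes. Muc1 read 2085 and 1988 in heterozygous samples, 728 and 1089 in WT on day 4, and 14415 and 16108 in WT on day 1. Cldn3 read 23557 and 24012, 33662 and 27190, and 11196 and 11945 in that order.

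The comparison of WT day 4 with WT day 1 asked how the epithelium's cholesterol genes change as pregnancy proceeds toward attachment. Of the 17 synthesis enzymes, 6 were lower on day 4 and 1, Dhcr7, was higher, at an adjusted p under 0.05 (limma at default settings, Benjamini-Hochberg over all 18193 genes). With the regulator Insig1, 7 of 30 measured cholesterol genes were lower, while 5.73% of all genes were, and 1 of 30 was higher, while 7.58% of all genes were. The median log2 change of the 17 enzymes was -1.02, against 0.30 over all genes, and the enzymes ranged from -3.29 for Sqle to 1.36 for Dhcr7. In these bulk samples, fewer cells of a type and less RNA per cell cannot be told apart.

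Among the enzymes of the mevalonate and isoprenoid steps, Mvd and Idi1 fell. Mvd, the decarboxylase that makes isopentenyl diphosphate, read 108 and 127 on the heterozygous arrays, 193 and 70.1 on the WT day 4 arrays, and 844 and 993 on the WT day 1 arrays. Idi1, which isomerises isopentenyl diphosphate, read 339 and 310.0 in heterozygous samples, 361 and 388 in WT on day 4, and 1749 and 2817 in WT on day 1. All 4 day 4 arrays lay far below both day 1 arrays for these genes. The log2 change from WT day 4 minus WT day 1 was -2.96 ± 0.53 for Mvd (SE, n = 2 arrays per group, limma adjusted p = 0.0368) and -2.57 ± 0.30 for Idi1 (limma adjusted p = 0.0153). Array 277, the array with the raised dim range, read higher than array 284 for Mvd, and without array 277 the change of Mvd was -3.69. The second probe set of each gene was also lower on day 4, by -4.21 for Mvd and -3.51 for Idi1 on the log2 scale.

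Among the enzymes of the squalene and lanosterol steps, Sqle and Cyp51 fell. Sqle, the squalene epoxidase that makes the first oxygenated intermediate, read 265 and 159 in heterozygous samples, 281 and 93.2 in WT on day 4, and 1190.2 and 2124 in WT on day 1. Cyp51, which takes a methyl group off lanosterol, read 412 and 440.4 in heterozygous samples, 354 and 286 in WT on day 4, and 1633 and 2229 in WT on day 1. Both genes had every day 4 array below every day 1 array, with wide scatter within the WT day 4 pair for Sqle. The log2 change from WT day 4 minus WT day 1 was -3.29 ± 0.68 for Sqle (limma adjusted p = 0.0491) and -2.58 ± 0.26 for Cyp51 (limma adjusted p = 0.0114). All 3 probe sets of Cyp51 were lower on day 4, by -2.58 to -1.72.

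Of the enzymes that finish the sterol, Msmo1 and Sc5d fell and Dhcr7 rose. Msmo1, the methylsterol monooxygenase, read 660.1 and 607 in heterozygous samples, 351 and 496 in WT on day 4, and 2592 and 3389 in WT on day 1. Sc5d, a sterol desaturase, read 986 and 959 in heterozygous samples, 647 and 648 in WT on day 4, and 2745 and 3003 in WT on day 1. Dhcr7, the reductase that turns the last precursor into cholesterol, read 536 and 526 in heterozygous samples, 709 and 632 in WT on day 4, and 217 and 310.2 in WT on day 1. For Msmo1 and Sc5d the heterozygous arrays sat between those of WT day 4 and WT day 1, and for Dhcr7 they also sat between them, with the order turned round.

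On the log2 scale, WT day 4 minus WT day 1 was -2.82 ± 0.28 for Msmo1 (limma adjusted p = 0.0113), -2.15 ± 0.18 for Sc5d (limma adjusted p = 0.00911) and 1.36 ± 0.26 for Dhcr7 (limma adjusted p = 0.0399). The mean WT day 4 signal was 0.142 of the day 1 mean for Msmo1, 0.225 for Sc5d and 2.54 times the day 1 mean for Dhcr7. With each array centred on its median the change of Dhcr7 was 1.17 and no longer passed (limma adjusted p = 0.138), while all 6 enzymes and Insig1 still passed as lower. The Sc5d probe sets disagreed in size and sign. A second one read 356 and 288 in WT on day 4, against 475 and 506 in WT on day 1, and the dimmest one gave a log2 change of 0.18.

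The other 10 enzymes did not pass. Hmgcs1, the synthase at the entry to the mevalonate steps, read 2693 and 2655 in heterozygous samples, 1832 and 2299.7 in WT on day 4, and 4004 and 5005 in WT on day 1. Its log2 change of -1.12 ± 0.24 just missed the threshold (limma adjusted p = 0.0516), and all 5 of its probe sets were lower on day 4, by -1.37 to -1.12. The squalene synthase Fdft1 (-1.39), the farnesyl diphosphate synthase Fdps (-1.02), the mevalonate kinase Mvk (-0.86) and the lanosterol synthase Lss (-0.41) also had both WT day 4 arrays below both day 1 arrays. Dimmer probe sets of 3 of these genes went the other way, with log2 changes of 3.36 and 1.80 for Fdft1, 1.72 for Fdps and 0.39 for Lss. The first of these read 142 and 67.4 in WT on day 4, against 4.62 and 15.7 in WT on day 1. It was called higher with the intensity trend in a fit over every probe set (limma adjusted p = 0.0221). A second bright probe set of Fdft1 gave -1.73. The dim Fdft1 (1.80), Fdps and Lss probe sets exceeded both day 1 arrays on array 277 only. On arrays 277 and 284 they read 89.2 and 10.3, 32.7 and 0.97, and 103 and 51.6. On the day 1 arrays they read 4.11 and 15.5, 1.83 and 1.15, and 38.9 and 79.5 in that order. Nsdhl, Hsd17b7, Tm7sf2 and Ebp, which act between lanosterol and the last sterol precursors, overlapped between the days. Pmvk, which phosphorylates mevalonate phosphate, had higher signals on day 4 without overlap (0.67 ± 0.41). The probe sets standing for Hmgcs1, Fdft1 and Lss are of designs that may also read related transcripts.

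**Figure D1:**
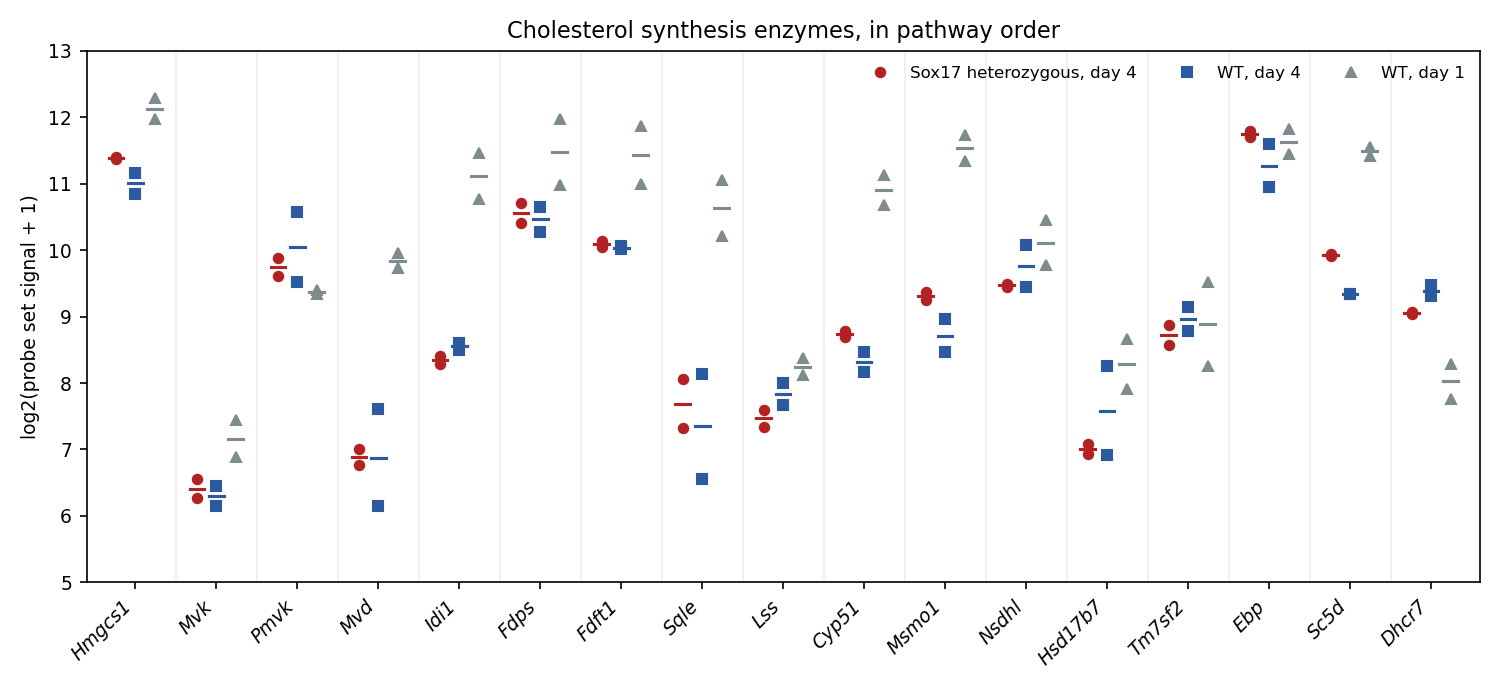
Log2(signal + 1) of the probe set that stands for each of 17 synthesis enzymes, in pathway order from left to right. Each point is 1 array (circles Sox17 heterozygous day 4, squares WT day 4, triangles WT day 1) and each short line is the mean of a group's 2 arrays. The day 1 points of Mvd, Idi1, Sqle, Cyp51, Msmo1 and Sc5d lie well above the points of both day 4 groups, and those of Dhcr7 lie below them.

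In the fit that let the prior variance follow signal intensity, 9 of 17 enzymes were called lower on day 4 and 1 higher, and over all roles 15 of 30 cholesterol genes were lower and 2 higher, while 10.8% and 14.0% of all genes were. Without regard to any test, 18 of 30 had both WT day 4 arrays below both day 1 arrays and 4 had both above, against 21.3% and 35.4% of all genes. The default-fit count of 7 lower genes depended on the arrays in the fit, also on those outside this comparison. With array 302 or array 303 left out it was 0, and with heterozygous array 253 or 281 left out, which enter only the estimate of the spread, it was 1. With the intensity trend, leaving out any 1 of the 6 arrays left 12 to 15 genes called lower. With all probe sets of a gene averaged, in place of the brightest one, 5 genes were called lower by default, of which Idi1 and Insig1 are among the 7 and Hmgcs1, Scarb1 and Stard4 are not. Mvd, Sqle, Cyp51, Msmo1 and Sc5d lost their call there (limma adjusted p of 0.0908, 0.0543, 0.0540, 0.161 and 0.200 in that order), and so did Dhcr7 (limma adjusted p = 0.0508). With array weights 5 were called lower, without Sqle (limma adjusted p = 0.0744) and Insig1 (limma adjusted p = 0.0607).

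Among the regulators, Insig1 fell with the enzymes. INSIG1 retains SCAP in the endoplasmic reticulum, and its gene is itself a target of the SREBP factors. Insig1 read 503 and 309.9 in heterozygous samples, 260.3 and 265 in WT on day 4, and 1127 and 1453 in WT on day 1. The day 1 arrays were clearly highest, and the log2 change from WT day 4 minus WT day 1 was -2.28 ± 0.32 (limma adjusted p = 0.0216). Srebf2, which encodes the SREBP most devoted to cholesterol, read 429 and 354 in heterozygous samples, 304 and 351 in WT on day 4, and 715 and 1259 in WT on day 1. Its groups did not overlap between the days, but the change of -1.54 ± 0.35 did not pass (limma adjusted p = 0.0612) and did so with the intensity trend (limma adjusted p = 0.00228).

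The estimated changes of the remaining 3 regulators between the days were smaller. Insig2, the second retention protein, read 1037 and 913 in heterozygous samples, 656 and 677 in WT on day 4, and 1047 and 988 in WT on day 1. Srebf1, which encodes the SREBP proteins best known for fatty acid genes, read 1181 and 1269.6 in heterozygous samples, 1804 and 1569 in WT on day 4, and 1208 and 1577 in WT on day 1. Scap, the SREBP escort, read 917 and 1060.4 in heterozygous samples, 1125 and 849 in WT on day 4, and 1135 and 1123 in WT on day 1. Both WT day 4 arrays were the lowest of all for Insig2, whereas Srebf1 and Scap overlapped between the days. WT day 4 minus WT day 1 was -0.61 ± 0.19 for Insig2, 0.29 ± 0.23 for Srebf1 and -0.21 ± 0.24 for Scap, none of which passed in the default fit, while Insig2 passed with the intensity trend (limma adjusted p = 0.0245).

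Because several synthesis genes and Insig1 were low together on day 4, their promoters are shown for the letters linked to SREBP control. The RefSeq promoter table (GRCm38.p6) held windows of 300 bases, 250 before the start and 50 after it, for 25 of the 32 genes. The promoter of Hmgcs1 (chr13:119690101-119690400, plus strand) is shown because it alone among the 25 held TCACNCCAC, the core of the sterol regulatory element. Idi1 (chr13:8885356-8885655, plus strand), Cyp51 (chr5:4104648-4104947, minus strand) and Insig1 (chr5:28071162-28071461, plus strand) are shown as genes that fell. Capitals mark matches, on either strand, to CCAAT, the box bound by NF-Y, and to TCACNCCAC or the shorter TCACNNCA.
Hmgcs1: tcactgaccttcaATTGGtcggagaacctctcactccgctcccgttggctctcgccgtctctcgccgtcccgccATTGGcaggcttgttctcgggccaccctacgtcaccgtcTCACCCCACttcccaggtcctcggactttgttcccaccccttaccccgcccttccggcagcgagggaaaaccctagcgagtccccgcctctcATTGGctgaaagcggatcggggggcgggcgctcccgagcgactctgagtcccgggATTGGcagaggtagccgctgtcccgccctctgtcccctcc
Idi1: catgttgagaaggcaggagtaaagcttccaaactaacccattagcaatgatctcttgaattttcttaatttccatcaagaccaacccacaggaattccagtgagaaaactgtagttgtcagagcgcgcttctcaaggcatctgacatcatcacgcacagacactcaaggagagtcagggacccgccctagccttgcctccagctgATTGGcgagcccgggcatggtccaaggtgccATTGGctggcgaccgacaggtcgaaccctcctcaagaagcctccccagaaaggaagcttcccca
Cyp51: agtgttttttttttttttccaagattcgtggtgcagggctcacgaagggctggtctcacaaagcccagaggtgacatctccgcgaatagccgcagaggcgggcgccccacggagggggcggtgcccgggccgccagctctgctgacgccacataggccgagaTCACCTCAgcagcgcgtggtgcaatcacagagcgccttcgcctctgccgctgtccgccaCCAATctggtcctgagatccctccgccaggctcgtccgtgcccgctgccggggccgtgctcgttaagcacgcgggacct
Insig1: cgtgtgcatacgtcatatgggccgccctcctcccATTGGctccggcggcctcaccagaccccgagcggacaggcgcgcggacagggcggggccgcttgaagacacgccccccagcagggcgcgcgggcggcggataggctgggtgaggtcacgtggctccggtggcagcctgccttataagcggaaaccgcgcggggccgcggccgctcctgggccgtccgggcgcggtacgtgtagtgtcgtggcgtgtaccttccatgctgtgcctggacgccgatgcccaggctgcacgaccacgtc

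Counted on both strands, and taking a gene as matched if any of its windows was, TCACNCCAC was present for 1 of 25 cholesterol genes and for 1.44% of all 27025 genes in the table. TCACNNCA, a shorter form chosen after those matches had been seen and present within every TCACNCCAC match, occurred for 10 of 25 (40%), against 15.7% of all genes. It was found in 8 of 15 synthesis genes, 2 of 5 regulators and 0 of 5 transport genes. CCAAT occurred for 22 of 25 (88%), against 41.1% of all genes. It was found in 14 of 15 synthesis genes, 4 of 5 regulators and 4 of 5 transport genes. All 6 genes that were lower on day 4 and had a window held CCAAT, and Cyp51, Msmo1 and Sc5d among them also held TCACNNCA. Dhcr7, which was higher on day 4, held both as well. So did Hmgcs1, Pmvk, Nsdhl, Hsd17b7, Insig2 and Srebf2, which did not pass in the default fit. The LXR element, AGGTCA repeated after any 4 bases, matched 0 of 25 and 4 of all 27025 genes.

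None of the 8 transport genes passed between the days in the default fit, and their median log2 change was -0.59. At an unadjusted p under 0.05, 3 were lower and 1 higher, while 11.9% and 17.8% of all genes were. On the uptake side, Scarb1, the receptor for high-density lipoprotein, and Mylip, a ubiquitin ligase that degrades lipoprotein receptors, had both WT day 4 arrays below both day 1 arrays (-1.48 ± 0.38 and -1.12 ± 0.26). Stard4, a carrier that moves sterol through the cytosol, did so too (-1.32 ± 0.29), and these 3 genes were called lower with the intensity trend (limma adjusted p = 0.0389, 0.00125 and 0.00167 in that order). Tmem97, which binds NPC1, was dim and scattered, with signals of 4.39 and 70.1 in heterozygous samples, 6.82 and 24.3 in WT on day 4, and 79.5 and 132.5 in WT on day 1. The exporters Abca1 and Abcg1 overlapped between the days.

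The lysosomal exit genes had higher signals on the WT day 4 arrays, but neither passed in the default fit. Npc1, the membrane protein that passes cholesterol out of the lysosome, read 541 and 726 in heterozygous samples, 1369 and 1771 in WT on day 4, and 805 and 919 in WT on day 1. Npc2, its soluble partner, read 8460.0 and 9381 in heterozygous samples, 10513 and 13328 in WT on day 4, and 8848 and 9531 in WT on day 1. Both WT day 4 arrays were the highest of all 6 for both genes. WT day 4 minus WT day 1 was 0.86 ± 0.27 for Npc1 (limma adjusted p = 0.120, and 0.0112 with the intensity trend) and 0.37 ± 0.22 for Npc2 (limma adjusted p = 0.348). The trend call of Npc1 was lost after centring the arrays on their medians (limma adjusted p = 0.298) and without WT day 1 array 302 or WT day 4 array 284. A dimmer Npc2 probe set, at 475 and 474 in WT on day 4 against 163 and 160.5 in WT on day 1, gave 1.55 ± 0.25 in a fit over every probe set (limma adjusted p = 0.0338).

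**Figure D2:**
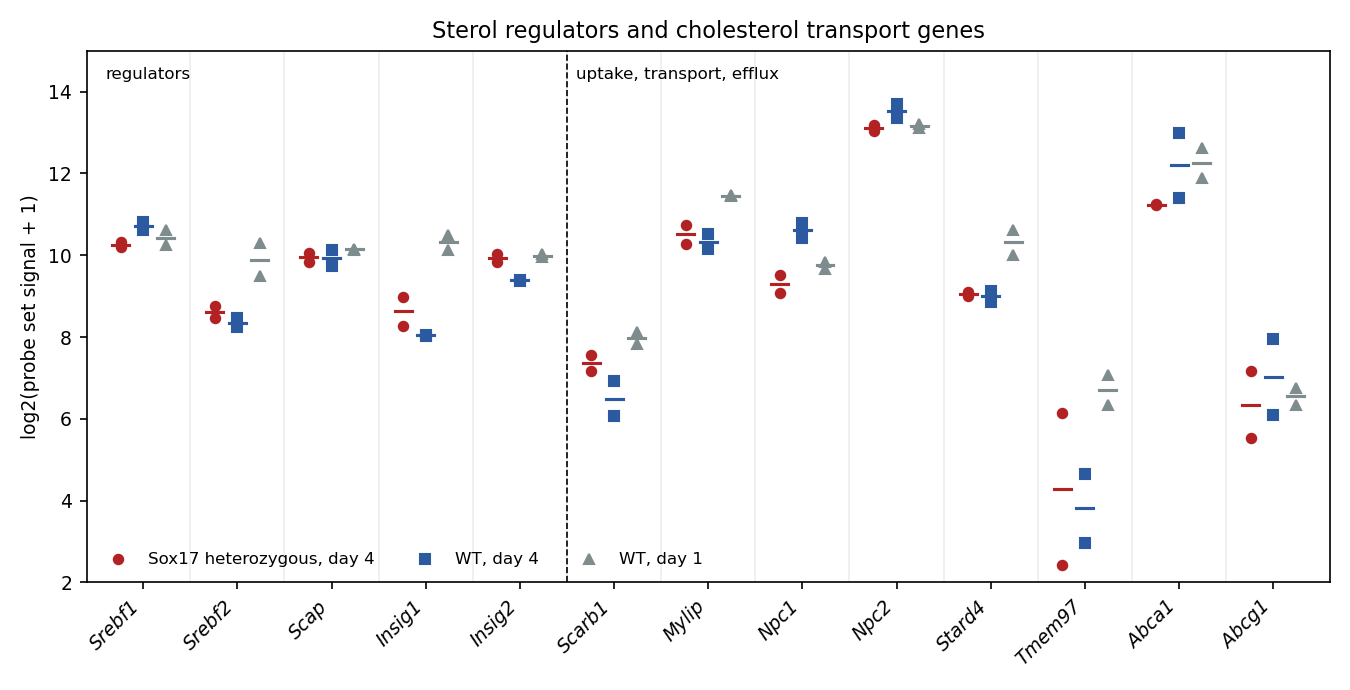
Log2(signal + 1) of the probe sets that stand for 5 regulators (left of the dashed line) and 8 genes of uptake, transport and efflux (right). Each point is 1 array, with the same symbols for Sox17 heterozygous day 4, WT day 4 and WT day 1, and short lines are group means. Npc1 has both heterozygous points below the WT day 4 points, and Insig1 has both WT day 1 points above all others.

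Summed signals of other cell types' markers differed between the days as well, in both directions. Summed over 9 stromal markers, signals were 1751 to 2843 in WT on day 4 and 3523 to 8953 in WT on day 1, and over 6 smooth muscle markers 309 to 392 in WT on day 4 and 891 to 893 in WT on day 1. Summed over 10 macrophage markers they were 1758 to 3190 in WT on day 4 and 6431 to 6957 in WT on day 1. The median log2 change of these 10 was 1.23, opposite in sign to the sum. Most of the day 1 sum was Cd68, at 6401 and 5746 on day 1 against 224 and 157 in WT on day 4. Of the 10, 6 were higher on day 4 without overlap and 1 lower, against 35.4% and 21.3% of all genes. The sums of the other non-epithelial lists were higher in WT on day 4 than in WT on day 1. They were 314 to 693 against 152 to 194 over 6 endothelial markers, and 221 to 508 against 139 to 161 over 5 lymphocyte markers. Over 2 erythrocyte markers they were 55.5 to 192 against 14.7 to 16.1, and over 3 adipocyte markers 72.9 to 271 against 23.3 to 40.9. The upper day 4 value of each of these sums was that of array 277. No marker of any list was at 0, and Pdgfra, Myh11, Cnn1, Cd79a, Nkg7 and Adipoq read under 50 on every array. The part of these markers in the cholesterol gene changes was not tested.

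The comparison of Sox17 heterozygous with WT epithelium on day 4 asked how epithelium with 1 normal copy of Sox17 differs from WT. In limma at default settings 0 of 30 cholesterol genes passed, as did 0% of all genes. At an unadjusted p under 0.05, 2 of 30 were higher, namely Sc5d and Insig2, while 4.56% of all genes were, and 1 of 30, Npc1, was lower, while 8.66% of all genes were. With the intensity trend 0 were called higher and 1, Npc1, lower, while 1.93% and 1.59% of all genes were. The synthesis enzymes had a median log2 difference of 0.05, between -0.58 for Hsd17b7 and 0.60 for Msmo1, and the transport genes -0.18, against -0.20 over all genes.

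Among the synthesis enzymes, both heterozygous arrays read above both WT arrays for Hmgcs1 (0.38 ± 0.24), Cyp51 (0.42 ± 0.26), Msmo1 (0.60 ± 0.28), Ebp (0.47 ± 0.31) and Sc5d (0.59 ± 0.18). They read below both for Idi1 (-0.21 ± 0.30), Lss (-0.36 ± 0.24) and Dhcr7 (-0.33 ± 0.26). The limma adjusted p was 0.433 for Msmo1 and 0.329 for Sc5d. Other probe sets went the opposite way for Sc5d (-0.22), Idi1 (0.68), Lss (0.92), Hsd17b7 (0.22), Fdft1 (-0.62) and Fdps (-1.79, on dim signals). Mvk gave 0.11 by the probe set standing for it. Its dimmer probe set read 121 and 82.3 in heterozygous samples, against 20.7 and 15.3 in WT. That gave 2.42 ± 0.55 in a fit over every probe set (limma adjusted p = 0.283). Across all roles, 16 of 30 genes had no overlap between the groups in either direction, against 48.5% of all genes. The 95% intervals were wide. Only 2 of 17 enzymes had an interval that lay inside a 2-fold change either way, Sc5d not being one of them at 0.09 to 1.08, so 2-fold differences could not be set aside for most enzymes.

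The log2 differences of the regulators lay between -0.46 and 0.59, and only 1 of 5 had a 95% interval inside a 2-fold change either way. Insig2 was higher in both heterozygous samples than in both WT samples with each of its 3 probe sets, by 0.50 to 0.64 on the log2 scale, and the one standing for the gene gave 0.55 ± 0.19 (limma adjusted p = 0.361). Insig1 was higher as well (0.59 ± 0.32), with array 253 at 503 and array 281 at 309.9 against 260.3 and 265 in WT. Srebf1 was lower without overlap (-0.46 ± 0.23), and Scap overlapped (0.01 ± 0.24). Srebf2 read higher without overlap by the probe set standing for the gene (0.26 ± 0.35) and lower by its second (-0.50).

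By the probe sets standing for the genes, Npc1 showed the largest difference among the cholesterol genes, -1.31 ± 0.27 on the log2 scale. Its heterozygous mean was 0.404 times the WT day 4 mean. Its limma adjusted p was 0.221 in the default fit and 0.00781 with the intensity trend. With arrays centred on their medians the difference was -1.14, and the trend fit no longer called it (limma adjusted p = 0.230). With the intensity trend, the call of 1 lower gene was lost without heterozygous array 253 and became 2 without WT array 277. Npc2 was lower by all 4 of its probe sets, by -1.88 to -0.41. The -1.88 came from a probe set under 50 on every array, at 3.45 and 33.7 in heterozygous samples against 42.8 and 46.9 in WT. The second bright probe set of Npc2 read 6186 and 7363 in heterozygous samples against 13119.9 and 11559 in WT. The intensity trend called it lower in a fit over every probe set (limma adjusted p = 0.0212). Among the exporters, Abca1 read 2387 and 2426 in heterozygous samples, against 2694 and 8151 in WT, and all 3 of its probe sets were lower (-1.51 to -0.74). The WT pair of Abca1 differed more within itself than array 277 did from the heterozygous arrays, and neither Npc2 nor Abca1 passed in either fit with the probe set that stood for it.

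Summed signals of other cell types' markers were also lower in the heterozygous samples, although 0 single markers of these lists passed in limma's default fit and 1, a stromal one, was called lower with the intensity trend. The macrophage sum was 1502 to 1619 in heterozygous samples, against 1758 to 3190 in WT on day 4. Of 10 macrophage markers, 5 did not overlap between the groups, all of them lower, against 48.5% of all genes in either direction. Their median log2 difference was -0.94 over all 10, and Cd68, a macrophage marker, read 308 and 167 in heterozygous samples, against 224 and 157 in WT. The stromal sum was 487 to 906 in heterozygous samples, against 1751 to 2843 in WT. Lymphocyte markers summed to 76.5 to 81.9 in heterozygous samples, against 221 to 508 in WT, and endothelial markers to 188 to 222, against 314 to 693 in WT. The upper WT value of the macrophage, lymphocyte and endothelial sums was that of array 277. Emcn, an endothelial marker, read 23.5 and 58.5 in heterozygous samples, against 205 on WT array 277 and 31.1 on WT array 284. The part of these markers in the lower Npc1, Npc2 and Abca1 signals was not tested.

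**Figure D3:**
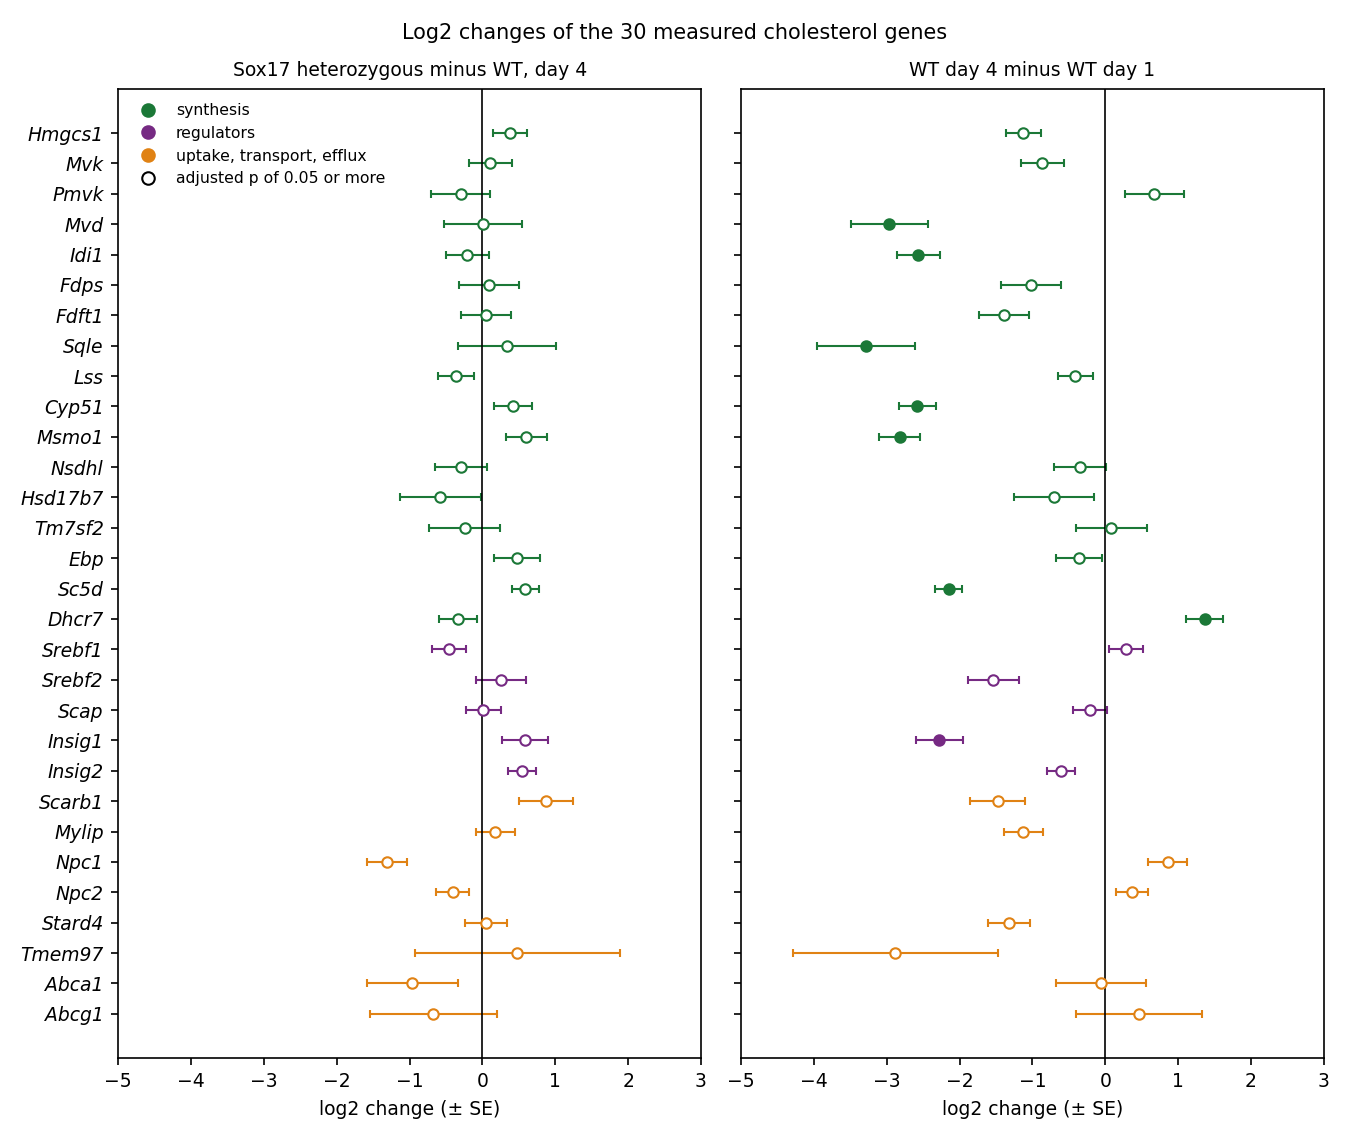
Log2 change with its standard error for each of the 30 measured cholesterol genes, coloured by role, for Sox17 heterozygous minus WT on day 4 (left) and WT day 4 minus WT day 1 (right). Filled circles mark genes with a limma adjusted p under 0.05. There are 0 filled circles on the left and 8 on the right, 7 of them left of 0 and Dhcr7 right of it.

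Set against WT on day 1, the heterozygous day 4 epithelium had low synthesis genes too. This comparison shares its arrays with the other comparisons, so it is no separate evidence for them. In limma's default fit 6 of 30 cholesterol genes were lower, while 4.48% of all genes were, and 0 were higher, while 5.07% were. The 6 were Mvd (-2.95 ± 0.53), Idi1 (-2.77 ± 0.30), Cyp51 (-2.16 ± 0.26), Msmo1 (-2.22 ± 0.28), Sc5d (-1.56 ± 0.18) and Insig1 (-1.69 ± 0.32), with limma adjusted p between 0.0177 and 0.0492. Sqle did not pass (-2.95 ± 0.68, limma adjusted p = 0.0717). At an unadjusted p under 0.05, Dhcr7 was the 1 gene higher, while 13.8% of all genes were, and with the intensity trend it was also called (1.03 ± 0.26, limma adjusted p = 0.0124), beside 13 genes called lower, while 11.7% and 9.65% of all genes were called higher and lower.

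Leaving out either heterozygous array or either WT day 1 array brought the default-fit count of lower genes to 0, while with the intensity trend 9 to 14 were called lower without any 1 array. With arrays centred on their medians 4 were called lower, and Msmo1, Sc5d and Insig1 did not pass. With all probe sets of a gene averaged 1, Idi1, was called lower. The median log2 change was -0.93 over the 17 enzymes and -0.78 over the 8 transport genes, against 0.01 over all genes. Insig2 had nearly the same signals in heterozygous samples as on day 1 (-0.06 ± 0.19), with a 95% interval of -0.58 to 0.45, and its other probe sets gave 0.23 and 0.38. In this comparison 22 of 30 genes were lower and 2 of 30 higher without overlap, against 30.1% and 32.2% of all genes.

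**Figure D4:**
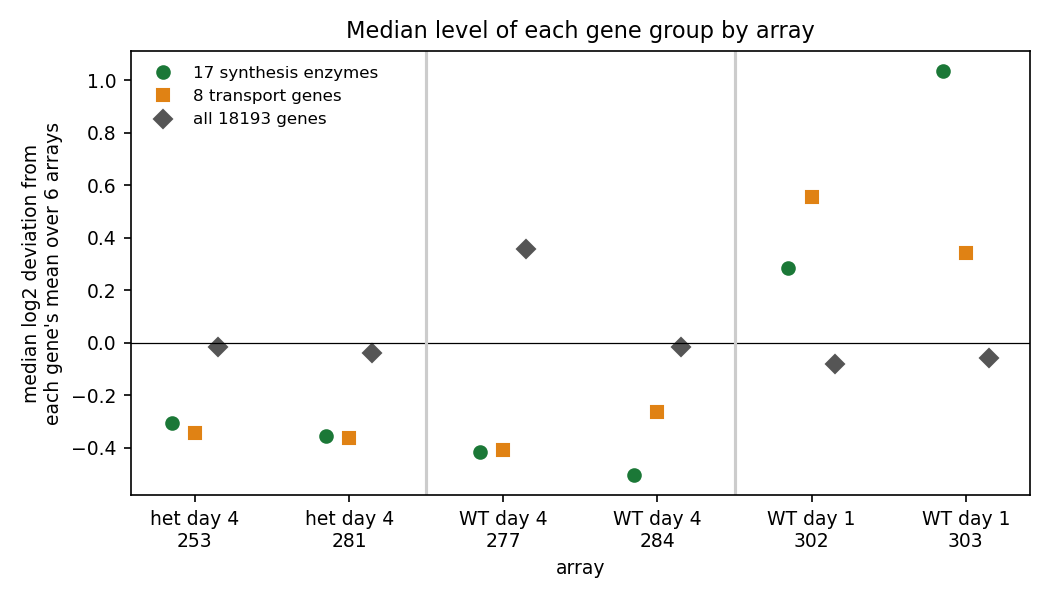
Median log2 deviation from each gene's own mean over the 6 arrays, for 17 synthesis enzymes, 8 transport genes and all 18193 genes, by array. Both gene groups lie below 0 on all 4 day 4 arrays and above 0 on both WT day 1 arrays, and the median of all genes is highest on WT day 4 array 277.

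A further 38 genes of the wider pathway, listed from general knowledge, gave 30 measured genes that cover SREBP cleavage, LXR receptors, sterol carriers, lysosomal and lipoprotein handling and oxysterol enzymes. For WT day 4 minus WT day 1 their median log2 change was 0.14, with 6 of 30 higher and 1 of 30 lower in limma's default fit, while 7.58% and 5.73% of all genes were. Lipa, the lysosomal acid lipase that frees cholesterol from its esters, read 931 and 916 in heterozygous samples, 3414 and 2774 in WT on day 4, and 476 and 385 in WT on day 1. Apoe, the apolipoprotein that carries cholesterol between cells, read 127 and 156 in heterozygous samples, 713 and 583 in WT on day 4, and 61.3 and 137 in WT on day 1. Both genes were highest on the WT day 4 arrays.

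Between the days Lipa changed by 2.84 ± 0.23 (limma adjusted p = 0.00853) and Apoe by 2.80 ± 0.45 (limma adjusted p = 0.0287). The lipoprotein receptor Vldlr (2.75), the SREBP-cleaving protease gene Mbtps1 (1.30), and the sterol carriers Gramd1a (1.25) and Stard5 (1.21) also rose, while Nceh1, a cholesteryl ester hydrolase, fell by 2.25. For heterozygous minus WT on day 4, 0 of 30 passed in the default fit, where 0% of all genes passed, and at an unadjusted p under 0.05 1 was higher and 4 lower, while 4.56% and 8.66% of all genes were. With the intensity trend Lipa (-1.74 ± 0.23), Apoe (-2.18 ± 0.45) and Mbtps1 (-0.84 ± 0.25) were called lower and Stard5 (0.76 ± 0.19) higher, that is 3 of 30 lower and 1 of 30 higher, while 1.59% and 1.93% of all genes were. Macrophages express Lipa and Apoe strongly. The macrophage marker sum was lower in heterozygous than in WT day 4 samples, although Cd68 overlapped. Of those 10 markers, 5 were lower without overlap, against 48.5% of all genes without overlap in either direction. Between the days, where Lipa and Apoe rose, the macrophage sum was lower in WT on day 4, while the median log2 change of its markers was 1.23. The part of those cells was not tested. Set against WT on day 1, heterozygous samples had higher Stard5 (1.97), Vldlr (2.81) and Gramd1c (1.35) in the default fit, 3 of 30 genes, while 5.07% of all genes were higher.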

How the data were processed

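Epithelial RNA (100 ng) was amplified, biotin-labelled and hybridised to 1-colour Affymetrix arrays, per the labels' protocols. The deposited values are probe set intensities that are not on a log scale. For the authors' software, the submitters' processing notes list RMA, Transcriptome Analysis Console and Affymetrix Expression Console, without saying which of these made the values. Every array had a mean of 500 after trimming 2% at each end, and the values lack the log form of RMA output. Without detection calls, it is not known which dim signals exceed background.

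Of 45101 probe sets, the 34945 with exactly 1 gene symbol in the platform annotation were used (932 had several symbols, 9160 none listed, and 64 are controls), giving 18193 genes. Values were taken as log2(signal + 1) without a filter, and log2 changes are on that scale. A linear model with 3 group coefficients and 3 residual degrees of freedom was fitted to the 6 arrays with limma 3.58.1 (R 4.3.3). Its eBayes test was two-sided at default settings, p-values were adjusted by Benjamini-Hochberg across the 18193 genes, and an adjusted p under 0.05 was called. Errors after ± are standard errors from this fit, also beside a p from the fit with an intensity trend. No exact permutation test was run, since 2 against 2 cannot give less than p = 0.333. The scripts' fits were checked on simulated data.

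The genes, lists and tests were chosen with earlier results of these data known. Per-array values were printed for genes called in any comparison in the default fit, for those at least 2-fold apart at an unadjusted p under 0.05 between the day 4 groups, and for the 5 regulators. Of the wider pathway, at most 6 called genes of smallest p per comparison were to be named. Values of Hmgcs1, Npc2, Abca1 and Tmem97, and Nceh1 and the trend-fit calls of the wider pathway, were added after they had been seen. Promoters came from RefSeq (GRCm38.p6) and were searched for exact matches on both strands. Alternatives were quantile normalization, centring on array medians, minimum mean signals of 50 and 200, an intensity trend or robust prior, array weights, fits of 4 arrays, each probe set alone or their mean per gene, pseudocounts of 32 and 100, other thresholds, and leaving out each array.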

Additional observations from a re-analysis of the deposited data

How the results depend on the processing

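No paired analysis was possible because the groups share no sample numbers. For WT day 4 minus WT day 1, the count of cholesterol genes called lower was 7 in the default fit, 14 and 13 at minimum mean signals of 50 and 200, 15 with an intensity trend, 13 with the trend after centring, 13 and 14 with pseudocounts of 32 and 100, 13 at an adjusted p under 0.10, 1 in a fit of 4 arrays, and 5 each with array weights and with probe sets averaged per gene. Of these, 5 and 2 were among the 7, and Mvd, Sqle, Cyp51, Msmo1 and Sc5d lost their call when averaged. Leaving out 1 array gave 0 to 6. The count called higher was 1 in the default fit, 2 at a minimum of 200, with the trend or with a pseudocount of 100, and 0 with centring, 4 arrays, array weights, the mean of probe sets or without any 1 array. With the trend it was 2, 1 after centring, and 1 to 4 without 1 array.

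For heterozygous minus WT on day 4, 0 genes were called lower in the default fit and 1 at a minimum of 200 or with the trend. The trend's 1 became 0 after centring and 0 to 2 without 1 array, and its count of 0 higher became 0 to 1. For heterozygous day 4 minus WT day 1, the count called lower was 6 by default, 11 and 13 at minimums of 50 and 200, 13 with the trend, 10 with the trend after centring, 12 with a pseudocount of 100, 1 with the mean of probe sets, and 0 to 6 without 1 array. The count called higher was 0, and 1 at either minimum, with the trend, array weights, either pseudocount or an adjusted p under 0.10. The trend's 1 became 0 after centring and 0 to 1 without 1 array.

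Without 1 array, the enzymes' median log2 change lay between -1.29 and -0.58 for WT day 4 minus WT day 1 and between -1.43 and -0.65 for heterozygous day 4 minus WT day 1. The transport median for heterozygous minus WT on day 4 was -0.18, and -0.0062 after centring, -0.45 with the mean of probe sets and -0.41 at a minimum of 200. For WT day 4 minus WT day 1 it was -0.59, and -0.79, -0.058 and -0.44 after centring, at a minimum of 200 and with a pseudocount of 100, with -1.02 to -0.41 without 1 array. For heterozygous day 4 minus WT day 1 it was -0.78, and -0.97 with the mean of probe sets, -0.95 at a minimum of 200, -0.51 with a pseudocount of 100, and -0.90 to -0.69 without 1 array.

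Besides Fdft1, Fdps, Lss, Idi1, Srebf2 and Insig2, as given above, Sc5d and further genes changed sign on other probe sets. For heterozygous minus WT on day 4 these were Sc5d (-0.22), Hsd17b7 (0.22) and Scarb1 (-0.06). For WT day 4 minus WT day 1 they were Sc5d (0.18), Hsd17b7 (0.85) and Abca1 (0.20). In heterozygous day 4 minus WT day 1 they were Sc5d (0.33), Mvk (0.82), Npc2 (0.23, and 2.22 on signals under 50), Fdft1 (2.73) and Lss (0.39). A minimum signal leaves fewer genes to adjust over, and the cause of the other shifts was not tested. The 2 arrays per group and the unknown background limit what dim genes such as Tmem97 can show.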
